A study of Mus musculus with 15 samples.

Results

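Of 15 mouse bone marrow-derived macrophage (BMDM) samples measured on the NanoString nCounter Myeloid Innate Immunity panel, 11 had been conditioned with IL-4, and these 11 held very different amounts of fibroblast RNA. Cultures were called fibroblast-rich where the raw count of Col1a2, which encodes a chain of type I collagen, was 1000 or more, and fibroblast-poor where it was under 100. By this rule 6 samples were fibroblast-rich and 5 were fibroblast-poor. The classes were thus chosen by a measured gene, so the contrast between them is described with values and without any test, and tests are given only for the treatment groups of the labels.

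The classes cut across those groups. In all 11 samples, bone marrow cells from mouse femurs had been grown with M-CSF and then, from day 7, first exposed to 20 ng/mL IL-4 for 4 days. The IL4 group (4 samples, M2-like standards) received nothing further and held 3 fibroblast-rich cultures and 1 fibroblast-poor culture. The IRF5-NP group (3 samples, numbered 1, 2 and 4) was given nanoparticles with IRF5 mRNA for 1 h and held 1 rich and 2 poor cultures. The eGFP-NP group (4 samples) was given control nanoparticles with eGFP mRNA for 1 h and held 2 rich and 2 poor cultures. The labels give 1 µg of nanoparticles, while the methods of the study give a different amount of mRNA, and which applied here is not settled. By those methods mRNA of the kinase IKKβ was packed with that of IRF5, some eGFP mRNA served as a reporter, the particles bore di-mannose to bind the mannose receptor CD206, and the most strongly transfected cells were sorted and put back into a lower dose of IL-4 before RNA was taken. Both steps are described for nanoparticle-treated cells, so sorting, the later IL-4 exposure and treatment cannot be told apart in comparisons with IL4. The remaining 4 samples had MPLA (monophosphoryl lipid A, which activates Toll-like receptor 4) at 20 ng/mL in place of IL-4 over the same 4 days (M1-like standards) and are shown beside the others as raw counts. The labels do not give the strain, sex or age of the mice, nor say which samples were separate cultures, so the p-values below measure only the spread between these samples, which may be technical.

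Bone marrow flushed from a femur holds stromal cells as well as blood cell progenitors. M-CSF drives the progenitors to become macrophages, which take up particles and present antigen, whereas fibroblasts and other stromal cells adhere, divide and lay down collagens, fibronectin and matrix-modifying enzymes. Fibroblasts also secrete factors that act on macrophages, among them the growth factor M-CSF itself and the chemokines CCL2 and CXCL12. IL-4 turns macrophages toward an M2-like state marked by such genes as Retnla, Chil3 and Mrc1.

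An nCounter count is the number of colour-coded probes bound to a target RNA, with no amplification. Gene counts summed to 266169 to 1639968 in fibroblast-rich and to 1417820 to 1562163 in fibroblast-poor samples, and the lowest total was that of IRF5-NP 4, the only fibroblast-rich IRF5-NP culture. The background limit of a sample, the mean plus 2 SD of its 8 negative controls, was 19.7 to 34.9 counts, and of the 754 genes 440 to 603 exceeded it in rich and 461 to 476 in poor samples. Counts of eGFP-NP 1 and 2 did not differ detectably beyond the sampling noise at the minimum count used (chi-square per degree of freedom 1.09, p = 0.0817) and were summed to 1 library, which left 10 libraries, 6 rich and 4 poor. IRF5-NP 1 and 2 (1.63) and eGFP-NP 3 and 4 (1.37) were nearly as alike, although sampling noise did not account for their differences and they were kept apart, while the other pairs within groups stood at 266.6 to 1250. Differences are given as rich minus poor means of log2 CPM, the log2 of counts scaled to a common library size (CPM) after TMM normalisation, with SD over n = 6 rich and n = 4 poor libraries.

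The gap left by the rule was wide. Raw Col1a2 counts were 9771 in IL4 1, 23916 in IL4 2, 10303 in IL4 4, 4529 in IRF5-NP 4, 17721 in eGFP-NP 3 and 15576 in eGFP-NP 4, and 21 in IL4 3, 12 and 9 in IRF5-NP 1 and 2, and 18 and 14 in eGFP-NP 1 and 2. IRF5-NP 4 was thus the sample just above the limit of 1000 and IL4 3 the sample just below that of 100, with no sample between them. In every poor sample Col1a2 was below background. MPLA samples, for comparison, held 43580 to 51759 Col1a2 counts, more than any IL-4-conditioned sample.

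Other fibroblast markers followed the same split. Col3a1, a chain of type III collagen, was counted 9961 times in IL4 1, 21269 in IL4 2, 2195 in IL4 4, 2309 in IRF5-NP 4, 5134 in eGFP-NP 3 and 4601 in eGFP-NP 4, and 32, 36, 34, 28 and 34 times in the 5 poor samples in the order given for Col1a2. Cxcl12, the stromal chemokine that holds blood progenitors in the marrow, stood at 20039, 6148, 1053, 1767, 4435 and 3859 in the rich samples and at 7, 12, 7, 5 and 8 in the poor ones. The classes did not overlap in either gene, and IL4 4 had the lowest raw count among rich samples in both. Cdh11 encodes the mesenchymal cadherin-11, and its counts ran from 626 to 3560 in rich samples (median 2197) against 8 to 12 in poor ones. Pdgfra, the PDGF receptor commonly used to mark fibroblasts, ran from 311 to 1012 against 11 to 16. Col3a1 slightly exceeded background in 3 of the 5 poor samples, and no bound is given for it. The poor-class values of Cxcl12, Cdh11 and Pdgfra lay below background, so only a lower bound of the ratio could be given. Set against the highest background among the poor libraries, the rich mean was at least 118-fold higher for Cxcl12, 55.0-fold for Cdh11 and 18.7-fold for Pdgfra. These are bulk samples, so fewer cells of a type and less RNA per cell cannot be told apart.

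**Figure D1:**
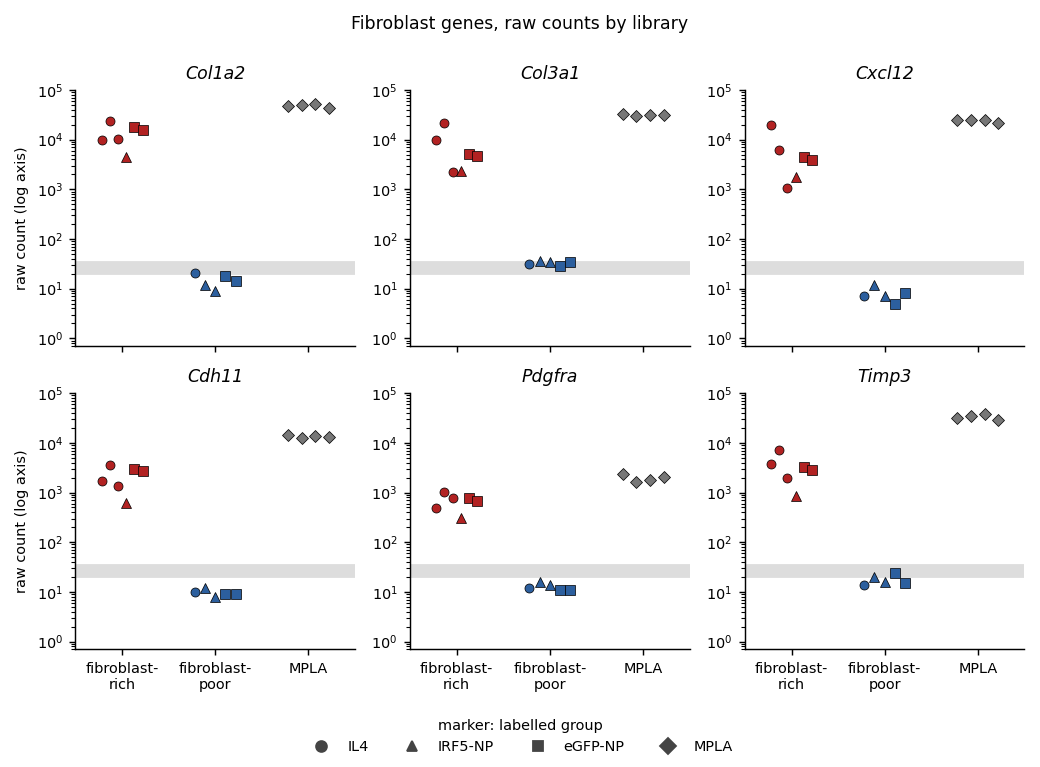
Raw counts (log axis) of 6 fibroblast genes in each sample, by culture class and in MPLA samples; the grey band spans the background limits of the 15 samples and the marker shape gives the labelled group. The 6 fibroblast-rich samples lie between 311 (Pdgfra) and 23916 counts (Col1a2), far above the 5 fibroblast-poor samples, of which none exceeds 36 counts.

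Over all 753 genes other than Col1a2, 113 were higher in every rich library than in every poor one, which is 15.0% of the genes, and 73 were lower in every rich library, which is 9.69%. The median difference over all genes was 0.09 (log2). Of the 113 higher genes, 88 were above background in every rich library, and 30 of these were below background in every poor library. Of the 73 lower genes, 71 were above background in every poor library. This balance depended on the scaling. With library totals alone the counts were 188 higher and 27 lower, and with scaling to macrophage genes 179 higher and 10 lower. Those scalings moved the median over all genes up by 0.55 and 0.83 respectively. Since the rule used this contrast, these shares stand as background and nothing is read from a list's count against them.

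Among matrix genes, 8 of 9 measured members were higher in every rich library, none was lower, and their median difference was 4.85. None of the 9 was above background in every poor sample, so the size of that median rests on poor-class values near or below background and is no measured ratio. Fn1, which encodes fibronectin, was at 12.75 ± 1.05 log2 CPM in rich and 5.18 ± 1.65 in poor libraries, and its poor-class spread came from IL4 3, with 210 counts against 17 to 25 in the other 4 poor samples. Tnc, which encodes tenascin-C, showed the same exception, with 58 counts in IL4 3 and 16 to 29 in the other poor samples against 244 to 1677 in rich ones. The fibril-associated collagen Col12a1 was counted 263 to 3317 times in rich and 11 to 20 times in poor samples, and its highest rich samples were eGFP-NP 3 and 4 (3317 and 2978). Basement membrane collagens Col4a1 (153 to 751 against 20 to 39) and Col4a2 (118 to 1281 against 8 to 17) were also highest in that pair. Loxl2, a collagen cross-linking enzyme, was counted 105 to 549 times against 8 to 10. Col17a1, an epithelial collagen, was the member whose classes overlapped, at 8 to 23 counts against 1 to 19, near or below background. Together the 9 matrix genes made up 0.509% to 3.32% of gene counts in rich samples, 0.0107% to 0.0248% in poor samples and 4.79% to 5.20% in MPLA samples. Rich samples therefore lay between poor samples and MPLA samples in this share, without overlap on either side.

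Surface and signalling genes of stromal cells were higher in every rich library for 8 of 11 measured members, lower for 1, and had a median difference of 3.76, with 3 of the 11 above background in every poor sample. With scaling to macrophage genes 8 were higher and none lower. N-cadherin (Cdh2) was counted 579 to 1563 times in rich and 7 to 12 times in poor samples, and the adhesion molecule Vcam1 142 to 481 against 13 to 20. Pdgfrb, which marks fibroblasts and pericytes, was counted 150 to 342 times in rich samples and stayed below background in every poor sample (16 to 24). Fgfr1 differed by less, at 8.69 ± 0.22 against 7.05 ± 0.06 log2 CPM, and was above background in every poor sample (138 to 170 counts). Pdgfb, a ligand of the PDGF receptors, was the lower member. It was counted 147 to 660 times in rich and 818 to 1164 times in poor samples, at 8.27 ± 0.69 and 9.78 ± 0.16 log2 CPM, while the ligand gene Pdgfa was at 9.73 ± 0.88 and 10.80 ± 0.45 with overlap. Cd34, which marks progenitors, endothelium and some fibroblasts, overlapped widely, with the poor eGFP-NP 1-2 (9.79 log2 CPM) above the rich IL4 4 (9.64).

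Factors secreted by stromal cells were higher in every rich library for 12 of 21 measured members and lower for 1, with a median difference of 2.08, and 9 of the 21 were above background in every poor sample. Scaled to macrophage genes, 14 were higher and none lower. Csf1, which encodes M-CSF, the growth factor these cultures were supplied with, was counted 4440, 7398 and 12976 times in the rich IL4 samples, 3148 times in IRF5-NP 4 and 11616 and 10467 times in eGFP-NP 3 and 4, and 288 to 743 times in poor samples. Its mean was 12.81 ± 0.58 against 8.54 ± 0.76 log2 CPM, with IL4 3 the highest poor library. Fgf7, a fibroblast growth factor for epithelia, was counted 959 to 3499 times against 20 to 34. The monocyte chemoattractants Ccl2 and Ccl7 were high in both classes but higher in rich ones, at 9754 to 36774 against 1492 to 6775 counts for Ccl2 and at 3101 to 18590 against 392 to 2555 for Ccl7. The neutrophil chemoattractants Cxcl5 (320 to 2323 against 14 to 29) and Cxcl1 (163 to 540 against 12 to 25) were below background in every poor sample. Vegfa and Vegfc, which promote vessel growth, were higher by 2.73 and 2.02. Igf1 went against the list, at 10.18 ± 1.11 in rich and 12.07 ± 0.27 in poor libraries, or 232 to 4206 counts against 3683 to 6340. The rich IL4 4 (4206 raw counts) exceeded the poor IL4 3 (3683), and the classes separated only after scaling.

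Matrix proteases and their inhibitors split. Of 18 measured members, 4 were higher and 5 lower in every rich library, and the median difference of -0.47 turned to 0.10 with library totals and to 0.39 with scaling to macrophage genes, where 4 were higher and 2 lower. Among the higher members were the inhibitor Timp3 (865 to 7129 counts against 14 to 24, with the rich mean at least 81.0-fold above background) and the metalloproteases Adamts1 (222 to 1633 against 49 to 92) and Adamts2 (128 to 658 against 19 to 27). Adamts2 trims procollagen. The lower members were Mmp12, the macrophage elastase, Mmp8 and Mmp13, which cleave fibrillar collagen, Adam8, a membrane protease of leukocytes, and the lysosomal protease Ctss. Cathepsin S (Ctss) was at 14.30 ± 1.01 in rich and 16.27 ± 0.31 in poor libraries, while cathepsin D (Ctsd) overlapped between classes, since the poor IL4 3 (63962 counts) fell among the rich samples.

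Among all genes above background in each library of the higher class, Cyr61, Cxcl12, Ctgf, Fn1 and Cdh11 were the 5 with the greatest calculated differences other than Col1a2. Poor-class values of Cyr61, Cxcl12, Ctgf and Cdh11 lay below background in every poor sample, and those of Fn1 in 4 of 5, so these genes have no measured order. Cyr61 and Ctgf encode secreted matricellular proteins of the CCN family. Cyr61 was counted 2515, 4122, 1469, 1357, 5989 and 5288 times in rich samples and 2, 2, 5, 16 and 17 times in poor ones, and Ctgf 1482, 6735, 2207, 2835, 7430 and 6694 times against 10 to 14. Both had their highest raw count in eGFP-NP 3, and no poor sample rose above background in either. Against background the rich mean was at least 87.2-fold higher for Cyr61 and 113-fold for Ctgf. In MPLA samples Cyr61 reached 7662 to 8349 and Ctgf 4677 to 5461 counts, so that Ctgf, unlike Col1a2, was not higher there than in each rich sample.

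**Figure D2:**
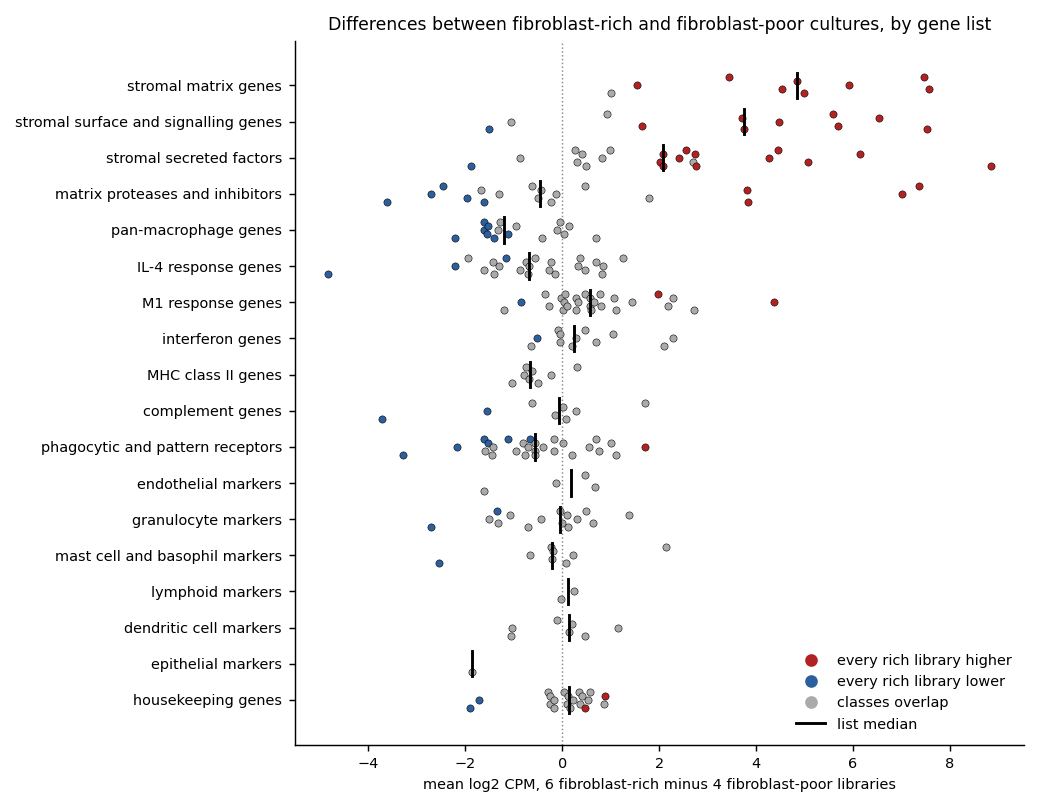
Rich minus poor difference in mean log2 CPM for each measured gene (points) of 18 gene lists, with list medians as vertical bars; red and blue points mark genes whose classes did not overlap. Medians of the 3 stromal lists lie at 4.85, 3.76 and 2.08, that of the pan-macrophage list at -1.21, and the other lists between -1.86 (1 epithelial gene) and 0.57.

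Macrophage genes were present in both classes, and part of them were lower in the fibroblast-rich one. Of 16 measured pan-macrophage genes, 7 were lower in every rich library, 9 overlapped and none was higher. The median difference was -1.21 with a range of -2.21 to 0.69, and it was -0.62 with library totals and -0.32 with scaling to these genes themselves, where 1 was lower. That last scaling sets the mean of the list nearly equal in all libraries (9.916 to 9.959), so it cannot show whether the list differs between classes. The 16 genes made up 3.65% to 6.0% of gene counts in rich samples and 6.27% to 8.94% in poor samples, beside 5.42% to 5.67% in MPLA samples. The lysosomal marker Cd68 was counted 19200, 8245, 27745, 2438, 8339 and 7290 times in rich samples and 23240, 38680, 35890, 34137 and 35267 times in poor ones. On the log2 CPM scale it was at 13.15 ± 0.77 against 14.77 ± 0.24. Tyrobp, a signalling adaptor of myeloid receptors, was at 12.90 ± 0.66 against 14.31 ± 0.17, and Laptm5, a lysosomal protein of blood cells, at 12.03 ± 0.84 against 13.58 ± 0.16. Csf1r, the receptor for M-CSF, overlapped (11.78 ± 0.77 against 12.73 ± 0.36), since IL4 2 (12.79) lay within the range of the poor libraries (12.46 to 13.23). The greatest difference in the list was that of Itgam, which encodes CD11b, at 10.65 ± 0.78 against 12.86 ± 0.31. Within labelled groups the median of the list was -0.63 in IL4, -1.84 in IRF5-NP and -1.47 in eGFP-NP, and the difference between these groups was not tested. The matrix, surface and secreted lists of stromal genes were higher in rich cultures within each group, with medians of 3.42, 3.25 and 1.67 in IL4, 5.38, 4.34 and 2.05 in IRF5-NP and 6.09, 4.38 and 2.39 in eGFP-NP.

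**Figure D3:**
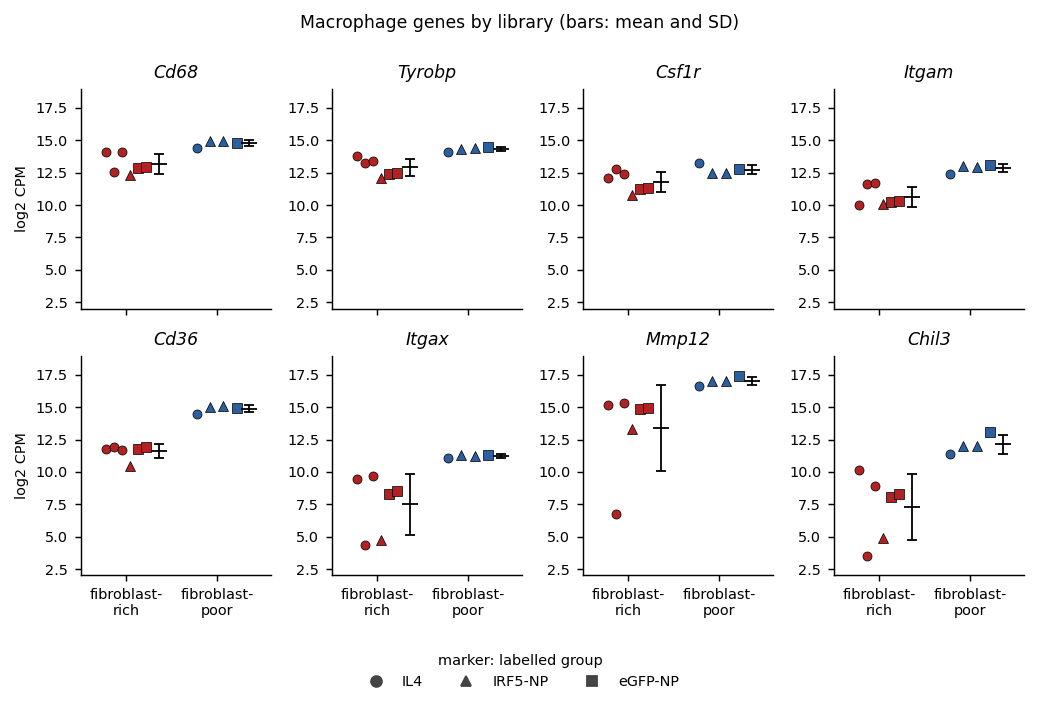
Log2 CPM of 8 macrophage genes in 6 fibroblast-rich and 4 fibroblast-poor libraries, with mean and SD at the right of each class; marker shapes give the labelled group. Cd68, Tyrobp, Itgam, Cd36, Itgax, Mmp12 and Chil3 do not overlap between classes, Csf1r does, and IL4 2 and IRF5-NP 4 are the lowest libraries for Itgax and Chil3.

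Of the genes lower in rich cultures, Chil3, Chil4, Itgax, Mmp12 and Cd36 had the greatest differences, each beyond the median of -1.21 of the pan-macrophage list. Chil3 and its neighbour Chil4 encode chitinase-like proteins that IL-4 induces in mouse macrophages. They are close relatives, so their probes may share targets. Chil3 was counted 1258, 13, 756, 13, 296 and 291 times in rich samples (IL4 1, IL4 2, IL4 4, IRF5-NP 4, eGFP-NP 3 and 4) and 2821, 5084, 4874, 10726 and 10897 times in poor ones. Chil4 followed it, at 10 to 1196 against 2630 to 9047. In IL4 2 and IRF5-NP 4 both genes were below background, as they were in MPLA samples (10 to 14 counts for Chil3).

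Itgax, which encodes CD11c, was counted 795, 26, 1296, 12, 349 and 337 times in rich samples against 2293 to 3247 in poor ones, and again IL4 2 and IRF5-NP 4 were lowest. Mmp12 was counted 41533, 148, 64903, 4736, 33982 and 30132 times against 106945 to 219814. Its difference of -3.62 became -2.34 without IL4 2. Cd36, a scavenger receptor for oxidised lipids, had the tightest rich class of these 5, at 11.61 ± 0.55 against 14.89 ± 0.27 log2 CPM, or 682 to 5512 against 24283 to 41895 counts. Its difference was -2.67 within IL4, -4.56 within IRF5-NP and -3.10 within eGFP-NP. With scaling to macrophage genes these 5 genes still did not overlap between classes, and their differences were -3.94 (Chil3), -3.85 (Chil4), -2.83 (Itgax), -2.72 (Mmp12) and -2.38 (Cd36).

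Phagocytic and pattern recognition receptors were lower in every rich library for 6 of 27 measured members and higher for 1, with a median of -0.57 that turned to 0.27 with scaling to macrophage genes, where 1 was lower and 3 higher. Beside Cd36, the lower ones were Trem2 (11.22 ± 0.71 against 12.84 ± 0.31), a lipid-sensing receptor of macrophages, the beta-glucan receptor Clec7a (9.34 ± 1.70 against 11.52 ± 0.31), Clec5a, and the Toll-like receptors Tlr6 and Tlr8. Clec7a fell below background in IRF5-NP 4 (30 counts) and ran from 778 to 2310 in the other rich samples. Nod1, a sensor of bacterial peptidoglycan that many cell types use, was the higher member, at 61 to 556 against 46 to 65 counts. Mrc1, which encodes the mannose receptor CD206 to which the particles were targeted, overlapped between classes. It was counted 4433, 953 and 9626 times in the rich IL4 samples, 256 in IRF5-NP 4 and 1106 and 1011 in eGFP-NP 3 and 4, against 3084 to 6192 times in poor samples.

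IL-4 response genes were mostly overlapping. Of 23 measured members, 3 were lower in every rich library, none was higher, and the median was -0.69. With scaling to macrophage genes the median turned to 0.18, with 2 higher and 1 lower. The 3 were Chil3, the transcription factor Egr2 (6.66 ± 1.29 against 8.88 ± 0.12) and Tgfb1 (11.45 ± 0.60 against 12.61 ± 0.16). The transglutaminase Tgm2 did not separate the classes, since IL4 2 held the most of any sample (9236 counts) and IRF5-NP 4 the least (256). Retnla, a hallmark of IL-4 exposure, was counted 55590, 1532 and 13193 times in the rich and 26941 times in the poor IL4 sample, against 238 and 228 in IRF5-NP 1 and 2, 5 in IRF5-NP 4, 123 and 139 in eGFP-NP 1 and 2 and 55 and 39 in eGFP-NP 3 and 4. Its difference between classes of -0.24 was 1.58 without IL4 3, -1.58 without IL4 1 and 0.63 with scaling to macrophage genes.

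Genes of the M1 response gave 2 higher and 1 lower of 27 measured members, with a median of 0.57. With scaling to macrophage genes 7 were higher and none lower, with a median of 1.42. Ptgs2, which encodes the prostaglandin synthase COX-2, was counted 83, 2105, 2162, 811, 2174 and 1890 times in rich samples (IL4 1 the lowest) and 40 to 80 times in poor ones. Socs3, a feedback inhibitor of cytokine signalling, was at 34 to 280 against 14 to 24 counts, below background in the poor class. The IRF5 mRNA in the particles was codon-optimised by the methods, and whether the panel's Irf5 probe reads it is not known, so counts of Irf5 are no check of delivery. Irf5 was at 10.03 ± 0.65 against 10.89 ± 0.11 log2 CPM, and this difference of -0.86 turned to 0.03 with scaling to macrophage genes. The inflammatory cytokine genes Il1a, Il12a and Il12b were not above background in any of the 11 samples. Interferon genes gave 0 higher and 1 lower of 12, with a median of 0.25 that was -0.018 without IL4 2. With scaling to macrophage genes 2 were higher and none lower, with a median of 1.13. The member lower with TMM normalisation was the receptor chain Ifnar1 (9.27 ± 0.27 against 9.80 ± 0.07), which was higher by 0.07 with library totals and by 0.37 with scaling to macrophage genes.

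The culture IL4 2 stood apart from all others in several of these genes, which were named here after their values were seen. The interferon-γ-induced chemokine Cxcl9 was counted 24006 times in it and 12 to 36 times in the other 10 IL-4-conditioned samples. Irf1, a transcription factor of the interferon response, reached 7153 counts there against 131 to 2062 in the others, the interferon-induced ubiquitin-like gene Isg15 2955 against 44 to 385, Cxcl10 reached 2736 against 13 to 152, and the Fc receptor gene Fcgr4 16480 against 88 to 977. The complement gene C4a stood at 3059 against 7 to 33. MPLA samples held 47 to 81 counts of Cxcl9, below IL4 2, and 4240 to 4927 of Isg15, above it. IL4 2 also held the most Col3a1 and Fn1 of the 11 samples and the least Mmp12. The geometric mean of its positive controls was the lowest of the 15 samples (887). That of IL4 3 was next (993), and the remaining samples lay at 1181 to 2813. Whether this bears on the values of IL4 2 and IL4 3 was not tested. Without IL4 2 the genes lower in every rich library numbered 118 instead of 73, and those higher 129 instead of 113.

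**Figure D4:**
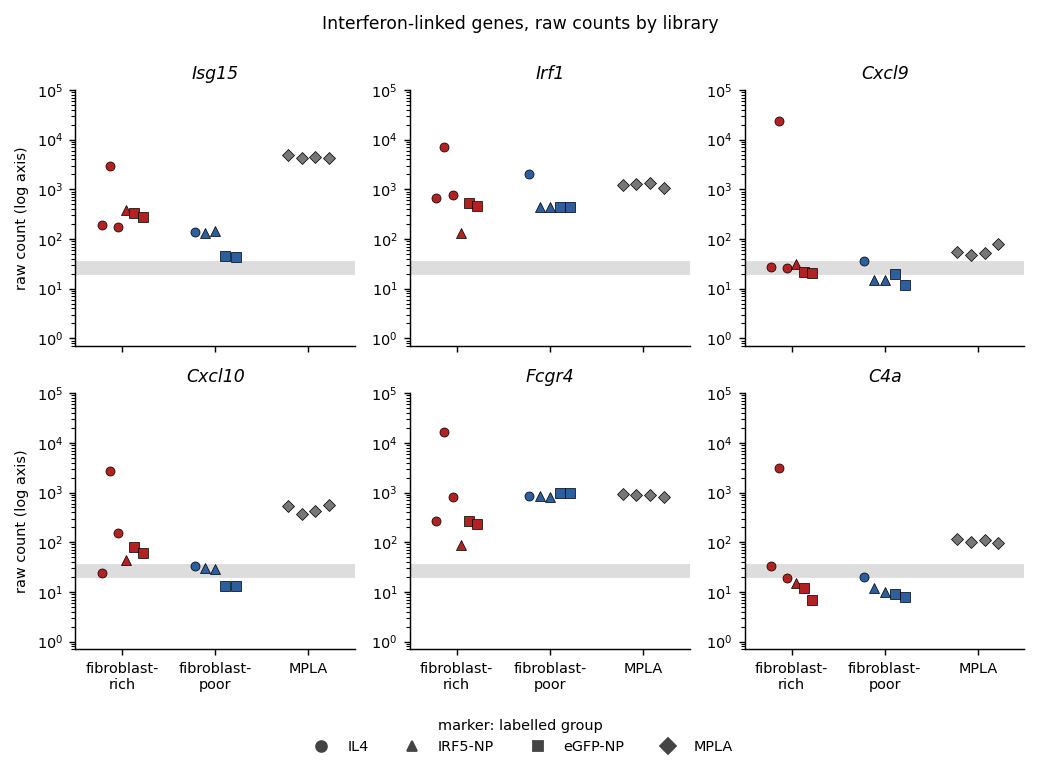
Raw counts (log axis) of 6 interferon-linked genes in each sample by culture class, with the background limits as a grey band. One fibroblast-rich IL4 sample, IL4 2, is the highest of the 11 IL-4-conditioned samples in all 6 panels, at 24006 counts for Cxcl9.

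MHC class II genes, which present antigen to CD4 T cells, overlapped in 8 of 8 measured members and had a median of -0.67, which turned to 0.23 with scaling to macrophage genes and to 0.21 without IL4 3. Here a member of each class was extreme. The invariant chain Cd74 was counted 155430 times in the rich IL4 2 and 194985 times in the poor IL4 3, against 21003 and 62067 in IL4 1 and 4 and 819 to 19179 in the nanoparticle samples. H2-Aa, H2-Ab1 and H2-Eb1, chains of the class II molecules, were likewise highest in IL4 3 (89284, 49880 and 19858 counts) and next in IL4 2 (58393, 40573 and 15029). The list made up 22.9% of gene counts in IL4 3 and 18.6% in IL4 2, and 0.587% to 5.45% in the other 9 samples. Of the complement genes, C1qb, a chain of C1q, was counted 4174, 36950 and 7472 times in the rich and 6442 times in the poor IL4 samples, and 235 to 1428 times in nanoparticle samples. Of 8 measured complement genes 2 were lower in every rich library, Itgax and the receptor gene C3ar1 (12.50 ± 0.37 against 14.04 ± 0.30). C3ar1 overlapped with scaling to macrophage genes, where 1 member was lower and 1 higher, and the median of -0.066 turned to 0.83.

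Markers of other cell types were sparse. Of 4 endothelial genes, Cdh5, Tek and Sele were above background in at most 1 of the 11 samples, and Flt1 was at 11 to 770 counts in rich and 361 to 664 in poor samples; their summed share was 0.021% to 0.050% and 0.026% to 0.0464%. Of 15 granulocyte genes, 2 were lower in every rich library, Mmp8 (6 to 168 against 209 to 466 counts) and Ccr3 (8 to 30 against 46 to 76), and the median was -0.037. Both overlapped with scaling to macrophage genes, where Camp and Mpo were higher, none was lower and the median was 0.74. Mpo lay near background, while Camp reached 86 counts. S100a9, Ly6g, Ctsg, Epx and Prg2 were above background in none of the 11 samples. Others of the list were detected in some samples: S100a8 was at 16 to 27 counts in rich and 33 to 82 in poor samples, Camp at 23 to 86 and 11 to 22, and Csf3r reached 180 in IL4 3. The summed share was 0.0305% to 0.0845% against 0.0506% to 0.084%. Of 8 mast cell and basophil genes, Tpsb2 was lower in every rich library (5 to 47 against 96 to 133 counts), Gata2 was at 46 to 205 against 15 to 68 with overlap, and Cpa3, Fcer1a, Kit, Hdc and Cma1 were above background nowhere. Their shares were 0.00821% to 0.0515% and 0.0111% to 0.0189%. Both lymphoid genes (Ms4a1 and Nkg7) and 7 dendritic cell genes overlapped, and Clec9a, which marks a dendritic cell subset, reached 252 counts in IL4 2 and 4 to 17 in the other 10 samples. The shares of these 2 lists were 0.00249% to 0.0131% and 0.0332% to 0.131% in rich, and 0.00135% to 0.00519% and 0.0535% to 0.072% in poor samples. The epithelial gene Cdh1 was at 5 to 216 against 30 to 249 counts, or -1.86 overall and 0.80 within IL4. The part of these cells in the differences between classes was not tested.

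Housekeeping genes had a median difference of 0.13 over 20 measured members, or 1.03 with scaling to macrophage genes, where 2 were higher and none lower. Gusb and Alas1 were lower in every rich library, by 1.73 and 1.90 on the log2 scale, and Hprt and Hdac3 higher by 0.46 and 0.88. Gusb encodes a lysosomal enzyme and was counted 1110 to 9710 times in rich and 8845 to 15011 times in poor samples.

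Treatment groups were then compared with the culture class as a term in edgeR's quasi-likelihood test. This fit assumes that rich and poor cultures differ by the same amount in every group. The list medians within labelled groups given above were unequal, and whether IL4 shared the shift of the nanoparticle groups was not tested. Between IRF5-NP and eGFP-NP, 0 of 754 genes (0%) passed an adjusted p of 0.05, and 56 had an unadjusted p under 0.05. Irf5, which is no check of delivery here, was counted 2313 and 2096 times in the poor and 205 times in the rich IRF5-NP samples, against 2495 and 2645 in the poor and 1182 and 1046 in the rich eGFP-NP samples and 1692 to 1986 in IL4, and its difference from eGFP-NP was -0.57 ± 0.40 (SE, adjusted p = 0.758), with -0.21 ± 0.30 in poor cultures (adjusted p = 0.999) and -1.33 ± 0.32 in rich ones (adjusted p = 0.111). The genes of smallest p were the non-coding RNA Kcnq1ot1 (-1.91 ± 0.34, adjusted p = 0.217), Fcer1a and Mmp13. DESeq2 called 8 genes in the same design.

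Ccl5, a T cell chemoattractant of the M1 response, had an IRF5-NP minus eGFP-NP estimate above 0 in poor cultures and below 0 in rich ones. The rich estimate was smaller than its SE and rested on 1 IRF5-NP library. Whether the poor estimate and the difference between classes passed depended on the tool and on 1 library. In poor cultures Ccl5 was counted 11099 and 10394 times in IRF5-NP 1 and 2 and 101 and 111 times in eGFP-NP 1 and 2. In rich cultures it was counted 406 times in IRF5-NP 4 and 2184 and 1873 times in eGFP-NP 3 and 4. The IL4 samples stood at 41, 1843 and 138 (rich) and 267 (poor). IRF5-NP minus eGFP-NP was 6.68 ± 2.64 in poor cultures (adjusted p = 0.999) and -1.21 ± 1.94 in rich cultures (adjusted p = 0.748), and the difference between these differences was 7.88 ± 3.22 (adjusted p = 0.464), in edgeR fits where some combinations of class and group held 1 library, assumed to vary like the others. With DESeq2 the adjusted p was 0.0158 in poor cultures and 0.0236 for the difference, and without IL4 2 in edgeR it was 0.0251 and 0.00447. Over all alternatives it ran from 0.0158 to 0.9999 and from 0.00447 to 0.989, and only these 2 passed. In rich cultures it ran from 0.0696 to 0.968. Within poor cultures 0 genes (0%) were called, with 26 at an unadjusted p under 0.05 and 3 called by DESeq2. Within rich cultures 0 were called, with 149 unadjusted and 56 by DESeq2, and Pf4, Cd14 and Stat4, the last not above background in any of the 11 samples, had the smallest p. Pf4, which encodes platelet factor 4, was counted 256 times in IRF5-NP 4 and 68 and 50 times in eGFP-NP 3 and 4 (3.24 ± 0.45, adjusted p = 0.0835), and the lipopolysaccharide co-receptor Cd14 931 against 498 and 439 times (2.10 ± 0.30, adjusted p = 0.0835). Cd14 had the smallest p for a difference between classes as well (-2.65 ± 0.43, adjusted p = 0.336), where 0 genes were called, 79 had an unadjusted p under 0.05 and DESeq2 called 11. The counts changed with 1 library, IL4 2: without it 2 genes were called with the class term, 9 within poor cultures, 243 within rich cultures and 70 for the difference.

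Against IL4, 39 genes (5.17%) were called in eGFP-NP and 6 (0.796%) in IRF5-NP, in comparisons that share the same 4 IL4 libraries. These counts were 140 and 48 with DESeq2, and 2 and 0 without the class term, which was set from Col1a2 counts. In eGFP-NP, 31 genes were lower and 8 higher. Retnla differed by -8.64 ± 1.49 on the log2 scale (adjusted p = 0.0268), the eosinophil-type ribonuclease gene Rnase2a by -5.50 ± 1.27 (adjusted p = 0.0416), and C1qb and C1qa by -5.17 ± 0.87 and -4.98 ± 0.86 (adjusted p = 0.0268 for each). Of the lists, 6 of 8 MHC class II genes, 5 of 23 IL-4 response genes and 3 of 8 complement genes were called lower and none higher. The medians of these lists were -3.28, -1.13 and -2.99 beside -0.13 over all genes. The pan-macrophage and phagocytic receptor lists, with no gene called, each had a median of -0.82. Among the genes called higher were Kcnq1ot1 (2.12 ± 0.31, adjusted p = 0.0211), the bone transcription factor Runx2 (1.31 ± 0.25) and, of 9 matrix genes, Col4a1 (1.70 ± 0.33).

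In IRF5-NP, Retnla differed by -8.47 ± 1.56, H2-Eb1 by -5.51 ± 0.99, H2-Aa by -4.73 ± 0.86, Cd74 by -4.09 ± 0.76 and the chemokine gene Ccl24 by -3.46 ± 0.54, and the transcription factor Hes1 by 1.80 ± 0.32, each at an adjusted p of 0.0458. Hes1 stood at 3 to 37 counts, near background, and Ccl24 was above background in the 4 IL4 samples alone; both were named after their values were seen. The sort and the later IL-4 exposure cannot be told apart from treatment here. These counts changed with single libraries. Without IL4 2 there were 68 calls for eGFP-NP and 26 for IRF5-NP, and without IL4 3 there were 90 and 3. Without eGFP-NP 3 or eGFP-NP 4 no gene was called in either comparison; without IRF5-NP 1 or 2 there was 1 call for eGFP-NP and 0 for IRF5-NP, and without eGFP-NP 1-2 there were 5 and 0. Without IRF5-NP 4 the counts were 24 and 0, and without IL4 4 there were 2 calls for IRF5-NP. With each nearly identical pair summed to 1 library, 0 genes were called against IL4 in either group.

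**Figure D5:**
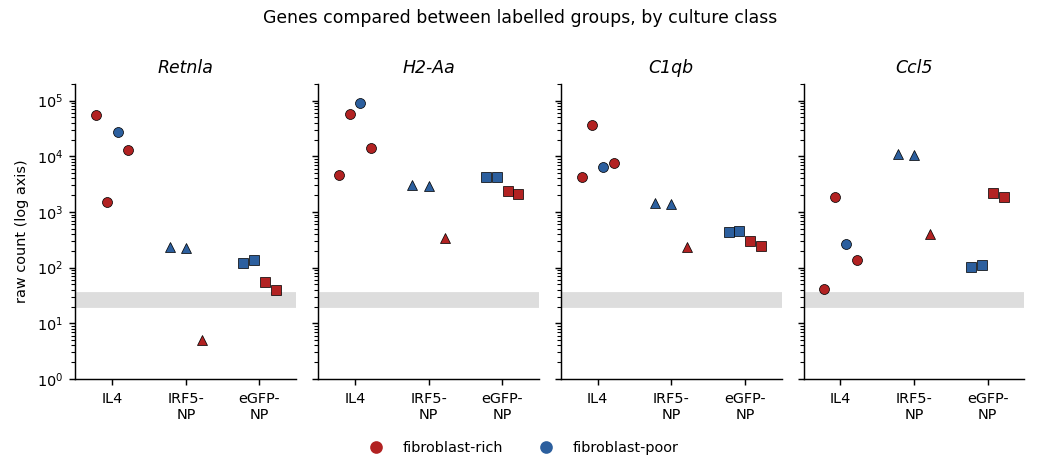
Raw counts (log axis) of Retnla, H2-Aa, C1qb and Ccl5 in each of the 11 IL-4-conditioned samples, by labelled group and coloured by culture class, with the background limits as a grey band. Retnla lies at 1532 to 55590 counts in IL4 and at 5 to 238 in nanoparticle samples of both classes, while Ccl5 is highest in the fibroblast-poor IRF5-NP samples (11099 and 10394).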

How the data were processed

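RNA of 15 mouse BMDM samples was hybridised to the NanoString nCounter Myeloid Innate Immunity panel. The authors deposited raw counts for 768 probes, namely 754 genes, 6 positive controls and 8 negative controls. Per the methods of the study, NanoStringQCPro was used for quality control, housekeeping genes served for scaling (by their geometric mean), nSolver software gave log2 values and groups were compared with adjustment after Benjamini and Yekutieli. The deposited counts carry none of these steps. The counting software's settings, cartridge and lane are not given in the sources used here, so a cartridge effect was not tested. Of the 754 symbols, 744 were current in the mouse RefSeq table (assembly GRCm38.p6), 9 were synonyms and 1 matched neither.

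Culture classes were set by the raw Col1a2 count as stated above. The members, gene lists and tests were chosen with earlier results of these data known, which includes the rule for named genes: the markers; the 5 greatest differences each way between classes that did not overlap and were above background in the higher class; up to 4 members per list of highest mean level and non-overlapping members that went against the list; up to 4 called genes each way per fit, or the 3 of smallest p; and Ccl5, Irf5 and Retnla. Other genes in the text were named after their values were seen, and a few list members are counted but not reported by name here. Near-identical libraries were looked for by chi-square, on genes whose counts in a pair summed to 40 or more; for eGFP-NP 1 and 2 a minimum of 10 gave p = 0.111 and of 100 p = 0.0162.

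Log2 CPM values were made in R 4.3.3 with edgeR 4.0.16 (TMM scaling, prior count 2, all 754 genes kept). Tests between treatment groups used edgeR (quasi-likelihood) on the counts of 10 libraries, with Benjamini-Hochberg adjustment over all 754 genes and a threshold of 0.05. One fit held group and culture class, and another held each combination of them. Alternatives were other scalings (DESeq2 1.42.0 size factors, housekeeping genes, library totals, pan-macrophage genes), DESeq2's test, limma 3.58.1 on housekeeping-scaled log2 values, a filter on genes above background in at least 4 libraries, other handling of near-identical libraries, no class term, a replicate block, and leaving out each library. The scripts were tested on simulated data. TMM scaling expresses each gene relative to the others, so a large stromal fraction can shift the values of other genes in a library. How far it did so here was not tested.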

Additional observations from a re-analysis of the deposited data

Results flagged for a closer look

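Libraries far from the rest of their class were looked for by the gap between the most extreme library and its nearest neighbour, divided by the whole range of the class on the log2 CPM scale. With 6 or 4 independent libraries of a kind, chance alone passes the limit used in about 1 in 20 groups. These classes mix labelled groups and hold nearly identical libraries, so that rate does not apply to them, and many genes were examined.

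Among fibroblast-rich libraries, IL4 2 was set apart as the highest for Irf1 (ratio 0.744) and as the lowest for Mmp12 (0.76) and for the mean of the protease and inhibitor list (0.797). IRF5-NP 4, the library with the lowest total, was set apart as the lowest for Cd36 (0.834), Irf5 (0.718), Ifnar1 (0.686) and Ctss (0.628). IL4 4 was the lowest for Adamts2 (0.807).

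Among fibroblast-poor libraries, IL4 3 was the only IL4 library, and it was set apart as the highest for the antigen presentation genes Cd74 (0.991), H2-Ab1 (0.943) and H2-Aa (0.908) and for the mean of the MHC class II list (0.896). It was also the highest for the mean of the dendritic cell list (0.951), Irf1 (0.966), Ctss (0.948), Rnase2a (0.925), Retnla (0.891) and Tgm2 (0.849), and the lowest for Ctsd (0.942), Ccl2 (0.858) and Laptm5 (0.836). The eGFP-NP 1-2 library was the highest for Ccl3 (0.914), Pdgfa (0.893) and Irf5 (0.842).

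Lists with at least 4 measured members, other than the housekeeping genes, were compared between IL4 and each nanoparticle group. In 2 of them rich and poor libraries did not overlap within either group and their mean difference had opposite signs. That of the endothelial list was 0.145 in IL4 and -0.693 in eGFP-NP, 0.839 apart, and that of the granulocyte list was -0.624 in IL4 and 0.102 in IRF5-NP, -0.726 apart. In each of these groups 1 class held 1 library. The closest endothelial means in IL4 were 4.956 (rich IL4 4) and 4.948 (poor IL4 3). The closest granulocyte means in IRF5-NP were 4.75 (rich IRF5-NP 4) and 4.738 (poor IRF5-NP 1), so these barely separated. Mean differences of other lists, such as the dendritic cell and mast cell lists between IRF5-NP and eGFP-NP, also differed in sign. Neither of the differences given was tested, and members of both lists lay mostly near background.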

How the results depend on the processing

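The stromal lists kept their direction under every scaling, filter and single-library omission tried and within each labelled group, but several medians moved. The same held for the pan-macrophage list, leaving aside scaling to its own genes. That scaling makes the mean of this list nearly equal in all libraries and so cannot show its direction. The matrix median was 5.70 with scaling to pan-macrophage genes, 3.42 within IL4 and 6.09 within eGFP-NP. The surface median was 4.33 with library totals, 4.62 with pan-macrophage scaling, and 3.25, 4.34 and 4.38 within IL4, IRF5-NP and eGFP-NP. The secreted median was 2.68, 2.97 and 2.38 with library totals, pan-macrophage scaling and the background filter, 1.67 within IL4, 2.39 within eGFP-NP and 1.99 to 2.28 without single libraries. The pan-macrophage median was -0.62 with library totals, -0.32 with its own scaling, -0.63 within IL4 and -1.84 within IRF5-NP. Genes higher in every rich library numbered 188 and genes lower 27 with library totals, and 179 and 10 with pan-macrophage scaling, beside 113 and 73; these scalings raised the median of all genes by 0.55 and 0.83. Leaving out single libraries gave 113 to 130 and 73 to 118. Among the medians and genes that turned sign were the protease median (0.10 with library totals, 0.39 with pan-macrophage scaling), the phagocytic median (0.27, pan-macrophage scaling), the epithelial gene (0.80 within IL4), Ifnar1 (0.072 and 0.37) and Irf5 (0.035, pan-macrophage scaling). With pan-macrophage scaling the medians of the IL-4 response (0.18), MHC class II (0.23), complement (0.83), granulocyte (0.74) and mast cell (0.61) lists also turned above 0, as did C5ar1 (0.27) and Retnla (0.63), and with library totals the complement, granulocyte and mast cell medians did (0.53, 0.48 and 0.33). Some other medians and genes turned with pan-macrophage scaling, when single libraries were left out or within 1 group.

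Counts of called genes were unstable. For IRF5-NP against IL4 (6) and eGFP-NP against IL4 (39), DESeq2 called 48 and 140, limma 1 and 18, edgeR with DESeq2 size factors 0 and 22, housekeeping scaling 0 and 16, eGFP-NP 1 and 2 kept separate 24 and 69, nearly identical pairs summed 0 and 0, and no class term 0 and 2. The background filter gave 0 and 52. For IRF5-NP against eGFP-NP (0), DESeq2 called 8 with the class term, 3 in poor cultures, 56 in rich cultures and 11 for the difference between classes. With eGFP-NP 1 and 2 separate there was 1 call with the class term and there were 34 in rich cultures, where limma and housekeeping scaling each called 1. Without single libraries the ranges were 0 to 26, 0 to 90, 0 to 2 (class term), 0 to 9 (poor), 0 to 243 (rich) and 0 to 70 (difference between classes). The cause was not tested. Without IRF5-NP 4 the rich and between-class contrasts, and without eGFP-NP 1-2 the poor and between-class contrasts, could not be fitted.

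Residuals of same-numbered samples correlated from -0.45 to 0.49. Differently numbered samples were not compared in this way, so whether replicate numbers pair the samples was not decided. With the number as a block and eGFP-NP 1 and 2 separate, 1 gene was called for IRF5-NP against IL4, 31 for eGFP-NP against IL4 and 0 in the other comparisons. Depth limits IRF5-NP 4, with 266169 counts, and poor-class values of most stromal genes lay below background.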

Other observations

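Genes outside the lists, chosen here after their values were seen, also separated the classes. Prrx1, a mesenchymal transcription factor, was counted 285 to 1115 times in rich and 6 to 15 times in poor samples. The collagen receptor Ddr2 was at 435 to 1699 against 12 to 17 counts, and Yap1, a transcriptional co-activator of the Hippo pathway, at 315 to 1309 against 7 to 24. All 3 were below background in every poor sample. The pattern recognition protein gene Ptx3 was counted 2403 to 8572 against 23 to 112 times and the actin-bundling protein gene Fscn1 1941 to 7869 against 21 to 34 times, above background in 4 and in 1 of the 5 poor samples. The caveolar gene Cav1, above background in all 5, was higher by 4.79 (log2). Il1rl1, which encodes the IL-33 receptor ST2, ran from 233 to 7637 counts in rich samples, highest in IL4 4, against 69 to 97 in poor ones. Ly6c1 ran from 391 to 22634, highest in IL4 2, against 17 to 73.

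Lower in every rich library were the lipoprotein lipase gene Lpl (difference -1.84 on the log2 scale, or 1057 to 12837 against 20317 to 26763 counts), the stress-response transcription factor Atf3 (-2.05), the β2 integrin chain Itgb2 (-1.99), the galectin gene Lgals3 (-1.80) and the kinase gene Syk (-1.34). Their differences lay beyond or near the median of -1.21 of the pan-macrophage list, and the contrast was the one the classes were chosen on.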
